A study of Homo sapiens with 8 samples.

Results

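Ribosome biogenesis and nucleolar genes encode the proteins that transcribe, cut, modify and package ribosomal RNA. The set described here holds 44 genes chosen by symbol, with earlier results of these data known. Many of them are known targets of the transcription factor MYC, and each level is the sum of the TPM of a gene's transcripts. TPM, the deposited unit, is a library's share of transcripts corrected for their length and scaled to 1000000. Of the 44, 43 were measured out of 52719 genes in the whole table, and BOP1 was not analysed here. The genes fall into 6 groups by role: RNA polymerase I and its factors, the box C/D and box H/ACA small nucleolar ribonucleoproteins (snoRNPs), abundant nucleolar chaperones and regulators, factors of the small ribosomal subunit, and factors of the large one.

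The cells were SH-SY5Y, a human neuroblastoma line derived as a subclone and used as a model of neurons, grown in DMEM/F12 with foetal calf serum. The differentiated group (4 libraries, replicates 21 to 24) had received 1 µM 9-cis retinoic acid, a ligand of the retinoic acid and retinoid X receptors, for 7 days. The undifferentiated group (4 libraries, replicates 17 to 20) has no treatment or time in its labels, so time in culture and treatment cannot be told apart. By the titles, lane 7 held undifferentiated replicates 17 and 18, and lane 8 held all differentiated libraries with undifferentiated replicates 19 and 20. The labels do not say whether replicates were separate cultures, so p-values measure the spread between libraries, which may be technical.

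Ribosome production starts in the nucleolus, where RNA polymerase I transcribes a long precursor of ribosomal RNA. Guide RNAs in box C/D snoRNPs direct methylation of the precursor and those in box H/ACA snoRNPs direct pseudouridylation, while large assemblies cut and fold it into the small and the large subunit. Growing and dividing cells spend much of their transcription on this pathway, and MYC is known as one of its activators.

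Almost the whole set was lower in differentiated cells. Of the 43 genes, 35 (81.4%) fell and 0 rose (limma, adjusted p under 0.05), and 38 had an unadjusted p under 0.05 with a lower level while 0 had one with a higher level. Over all 17077 genes tested, 17.4% fell and 33.9% rose, and among 11983 genes with a mean of at least 5 TPM, 20.6% fell. The set was chosen with earlier results of these data known, so its shares are not independent of that choice. The median log2 fold change of the set was -0.47, against 0.10 over all genes tested. Called falls ran from -0.23 to -1.0 on the log2(TPM+1) scale. For 36 of the 43 genes (83.7%) every differentiated library lay below every undifferentiated one, against 17.3% of all genes tested. For 0 of the 43 every differentiated library lay above, against 32.3% of all genes. Summed over the set, TPM came to 4221, 4188, 4349 and 4246 in differentiated replicates 21 to 24, against 6138, 6241, 5976 and 6205 in undifferentiated replicates 17 to 20. The sums did not overlap, and they averaged 4251 ± 70 TPM in differentiated and 6140 ± 117 TPM in undifferentiated cells (SD, n = 4 each). In these bulk libraries fewer cells of a type and less RNA per cell cannot be told apart, and a TPM says nothing of the amount of RNA in a cell.

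**Figure D1:**
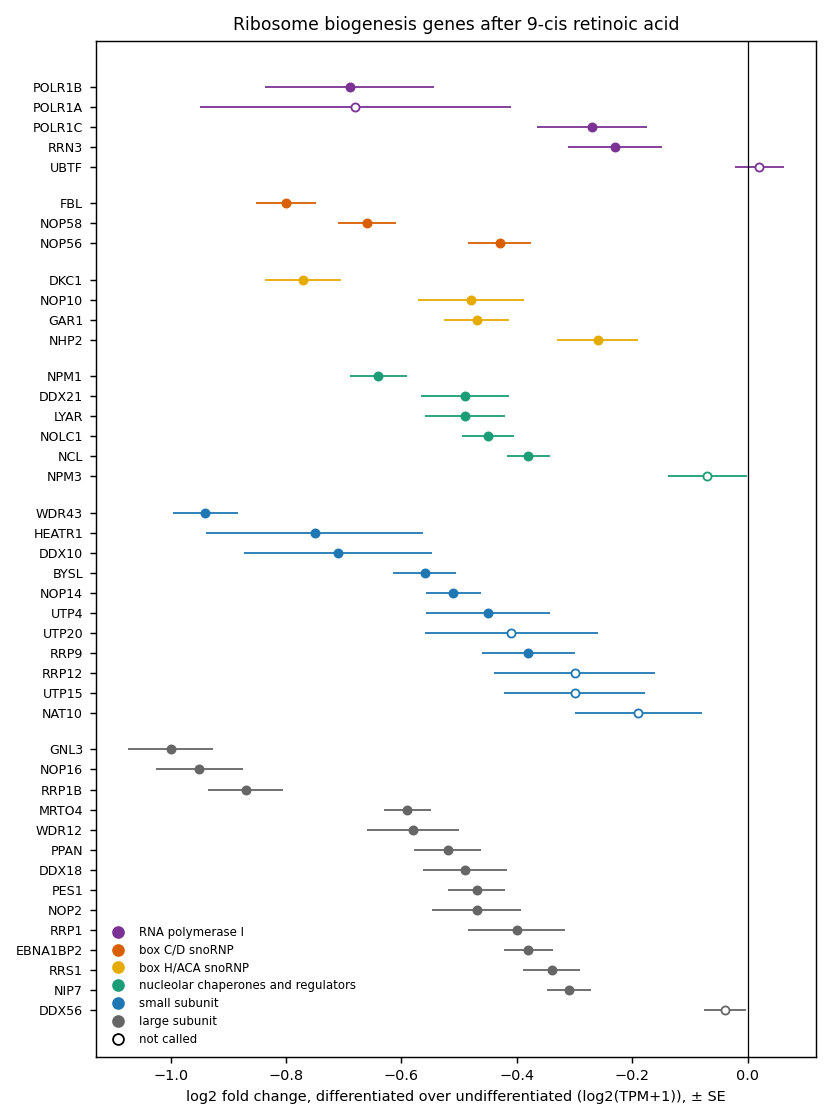
Log2 fold change of each of the 43 genes, differentiated over undifferentiated, on the log2(TPM+1) scale, with bars for the SE of the limma fit (n = 4 libraries per group). Colours mark the 6 roles, filled points are the 35 called genes and open points the 8 that were not called. Every point but UBTF (0.02) lies left of 0, and GNL3 lies furthest left at -1.0.

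Facts about all genes frame these values. Libraries had 16273 to 17370 genes at 1 TPM or more in differentiated and 16265 to 16433 in undifferentiated cells, and read depth is unknown. How libraries are scaled shifts the median of all genes: it was 0.10 with TPM as deposited (5791 genes higher, 2970 lower), -0.02 under median-of-ratios scaling (4553 or 26.7% higher, 4459 or 26.1% lower) and -0.07 under quantile scaling (4173 or 24.4% higher, 5098 or 29.9% lower). Relative to that median the set lay 0.57, 0.59 and 0.51 lower, with 35, 40 and 41 genes fallen and 0 risen. Defining markers of sympathetic neuroblastoma cells were all present, with 8 of 10 fallen and 1 risen. Of 10 markers of substrate-adherent mesenchymal cells, 8 rose and 0 fell, their summed level was 1263 to 1381 TPM in differentiated and 406.5 to 444 TPM in undifferentiated cells, and PRRX1 stayed at or near 0. Their part in the falls described here was not tested. Summed levels of the Schwann, blood and epithelial lists were at most 18.2, 23.5 and 18.02 TPM in differentiated and 8.5, 1.06 and 3.32 TPM in undifferentiated cells, with SOX10, CD3E and KRT5 under 0.5 TPM in every library. Of the members of these lists that were tested, 1 of 3, 1 of 1 and 2 of 3 rose in the same order, and 0 fell.

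The differentiated libraries differed from each other with transcript length, and the lowest for most genes was replicate 22. It had the lowest TPM of the 4 differentiated libraries for 30 of the 43 genes (69.8%), and for 54.7% of all 17077 genes tested. Its median deviation from the other 3 was -0.14 over the 43 genes and -0.15 over all genes. Among the 5 genes with a TPM-weighted transcript length of 4000 bases or more (DDX21, RRP1B, HEATR1, POLR1A and UTP20), replicate 22 lay a median of 0.60 below the mean of the other 3 differentiated libraries on the log2 scale. Among the 14 genes under 1500 bases that median was -0.07, with NOP10 the furthest above at 0.35. Spearman's rho between this deviation and length across the 43 genes, which share the library, was -0.56 for replicate 22, -0.53 for replicate 23, 0.64 for replicate 21 and 0.46 for replicate 24. In undifferentiated libraries it was between -0.14 and 0.14. Over all 17077 genes the same values were -0.14, -0.07, 0.17 and 0.11 in differentiated replicates 22, 23, 21 and 24. Each deviation is taken against the other libraries of its group, so the values within a group are tied to each other. Without replicate 22, 37 of the 43 genes fell, 0 rose and the median was -0.42.

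**Figure D2:**
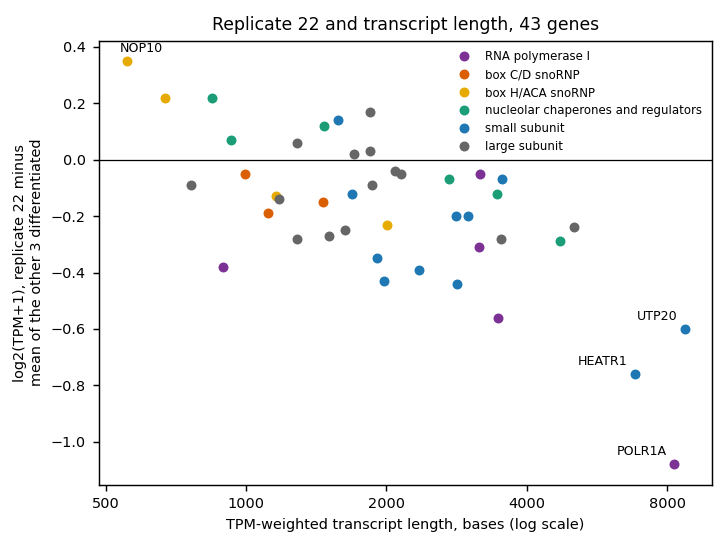
TPM-weighted transcript length of each of the 43 genes in bases (log scale) against the level in differentiated replicate 22 minus the mean of the other 3 differentiated libraries, in log2(TPM+1). POLR1A, HEATR1 and UTP20, the longest, lie at -1.08, -0.76 and -0.60, and NOP10, the shortest, at 0.35.

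Of RNA polymerase I and its factors 3 of 5 fell, with a median of -0.27, the one nearest 0 among the 6 roles. Within lane 8, and without replicate 17, 18, 19, 20 or 23, 1 of the 5 fell. The count was also 1 of 5 without the filter on mean TPM and without the limma trend. POLR1B, which encodes the second largest subunit of the enzyme, had 40.9, 24.1, 32.6 and 35.2 TPM in differentiated replicates 21 to 24, against 47.1, 56.8, 53.5 and 55.2 TPM in undifferentiated replicates 17 to 20. All differentiated libraries lay below all undifferentiated ones, replicate 22 lowest (log2 fold change -0.69 ± 0.147 SE, limma adjusted p = 0.00467). POLR1A, the largest subunit, had 16.2, 6.72, 12.1 and 18.4 TPM in differentiated and 20.5, 22.5, 17.4 and 23.2 TPM in undifferentiated libraries. Its groups overlapped and it was not called (-0.68 ± 0.269 SE, limma adjusted p = 0.0638). Without replicate 22 it passed at -0.41 (limma adjusted p = 0.0483), and without replicate 24 at -0.86 (limma adjusted p = 0.02998).

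POLR1C, a subunit that RNA polymerases I and III share, was the most abundant polymerase member that fell. It had 47.4, 37.4, 47.1 and 52.7 TPM in differentiated libraries, against 57.1, 55.9, 55.5 and 52.8 TPM in undifferentiated ones, so that the highest differentiated value came within rounding of the lowest undifferentiated one. Its fall of 0.27 on the log2 scale (limma adjusted p = 0.0456) was -0.17 without replicate 22 and lost its call without replicate 17, 18, 19, 20, 21 or 23 (limma adjusted p = 0.0626 to 0.104). POLR1C was not called within lane 8 (-0.24, limma adjusted p = 0.23) or over coding transcripts alone (-0.20, limma adjusted p = 0.117). It also lost its call without the filter on mean TPM and without the limma trend (limma adjusted p = 0.0753 and 0.0577). RRN3, the factor that brings RNA polymerase I to the promoter, averaged 41.1 ± 4.80 TPM in differentiated and 48.4 ± 1.44 TPM in undifferentiated cells (SD, n = 4 each). It fell by 0.23 (limma adjusted p = 0.042), and by 0.36 under both other scalings. RRN3 was not called without replicate 17, 18, 19, 20 or 23 (limma adjusted p = 0.063 to 0.0995) or within lane 8 (-0.23, limma adjusted p = 0.188). RRN3 also lost its call without the filter on mean TPM and without the limma trend (limma adjusted p = 0.0675 and 0.0547). Its 3 annotated pseudogenes, close copies, summed to 29.7 TPM in differentiated and 27.9 TPM in undifferentiated cells, so how reads were divided between them is uncertain.

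UBTF, which binds the promoter and body of ribosomal RNA genes and keeps them open, was not called. It had 50.2, 47.6, 48.5 and 49.7 TPM in differentiated libraries, against 50.4, 49.1, 46.6 and 46.9 TPM in undifferentiated ones. The groups overlapped (0.02 ± 0.042 SE, limma adjusted p = 0.697), and the sign turned to -0.11 under median-of-ratios and -0.10 under quantile scaling, also without a call.

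All 3 core proteins of box C/D snoRNPs fell, with a median of -0.66. FBL encodes fibrillarin, the methyltransferase of these particles. It had 157, 165, 181 and 176 TPM in differentiated replicates 21 to 24, against 285, 302, 294 and 307 TPM in undifferentiated replicates 17 to 20. The groups were far apart for their spread (-0.80 ± 0.052 SE, limma adjusted p = 5e-06). NOP58, a scaffold of the particle, had 98.3, 83.8, 88.9 and 91.8 TPM in differentiated and 145.9, 144.5, 143.8 and 141.8 TPM in undifferentiated libraries. Again no library crossed over (-0.66 ± 0.050 SE, limma adjusted p = 1.2e-05).

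NOP56, the partner scaffold, was the most abundant of the 3. It had 255, 216, 239 and 249 TPM in differentiated libraries, against 329, 312.5, 323 and 326.5 TPM in undifferentiated ones (-0.43 ± 0.054 SE, limma adjusted p = 2.47e-04). Its fall depended on which transcripts are counted. Transcripts that GENCODE 29 marks as protein coding held 25.6% of its TPM in differentiated and 20.7% in undifferentiated cells, at 61.5 ± 3.83 and 66.9 ± 1.95 TPM (SD, n = 4 each). Over those alone NOP56 was not called (-0.12 ± 0.052 SE, limma adjusted p = 0.0675), whereas FBL kept its call there at -0.81 and NOP58 at -0.49.

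The 4 core proteins of box H/ACA snoRNPs fell as well, with a median of -0.48. DKC1, which encodes dyskerin, the pseudouridine synthase that also binds telomerase RNA, had 72.7, 59.3, 65.95 and 71.1 TPM in differentiated libraries. In undifferentiated libraries DKC1 had 113.5, 117, 111 and 118 TPM. The lowest undifferentiated value was well above the highest differentiated one (-0.77 ± 0.066 SE, limma adjusted p = 2.52e-05). NOP10, the smallest subunit, had 260, 357, 304 and 275 TPM in differentiated and 429, 425, 403 and 404 TPM in undifferentiated libraries (-0.48 ± 0.092 SE, limma adjusted p = 0.00255). Here replicate 22 was the highest of the differentiated libraries, and without it the fall was 0.57. GAR1 averaged 93.9 ± 7.36 TPM in differentiated and 130 ± 1.96 TPM in undifferentiated cells (SD, n = 4 each). NHP2, which also binds the guide RNA, averaged 248 ± 22.8 and 296 ± 15.3 TPM in the same order, the smallest fall of the 4 at 0.26, and it was not called within lane 8 (limma adjusted p = 0.112). In TPM, NOP10 and NHP2 stood above GAR1 and DKC1 in every library. They are also the shortest of the 4, at 554 and 670 bases, and whether length plays a part was not tested.

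Abundant nucleolar chaperones and regulators fell in 5 of 6 cases, with a median of -0.47. NPM1 encodes nucleophosmin, a histone and ribosome chaperone, and was the highest of all 43 genes. It had 1152, 1273, 1298 and 1184 TPM in differentiated replicates 21 to 24, against 1897, 1995, 1830 and 1939 TPM in undifferentiated replicates 17 to 20. No library of one group reached the range of the other (-0.64 ± 0.049 SE, limma adjusted p = 1.28e-05). Under quantile scaling its fall was 0.37 (limma adjusted p = 2.81e-04). NPM1 alone held 27.3% to 30.4% of the summed TPM of the set in differentiated and 30.6% to 32.0% in undifferentiated cells. A transcript of 268 bases annotated as a retained intron held 42.8% of its TPM in differentiated and 40% in undifferentiated cells. Its coding transcripts alone averaged 671 ± 29.5 TPM in differentiated and 1105 ± 12.5 TPM in undifferentiated cells, a fall of 0.72 (limma adjusted p = 4.47e-07). Its 49 annotated pseudogenes summed to 10.4 and 6.91 TPM in the same order.

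NCL encodes nucleolin, which binds nascent ribosomal RNA. It averaged 380 ± 13.5 TPM in differentiated and 497 ± 12.9 TPM in undifferentiated cells (SD, n = 4 each), a fall of 0.38. NOLC1, a chaperone of snoRNPs, and DDX21, an RNA helicase that works both in ribosomal RNA transcription and in its processing, fell by 0.45 and 0.49. LYAR, a nucleolar zinc finger protein of growing cells, had 16.4, 19.6, 19.4 and 17.9 TPM in differentiated and 26.9, 24.7, 25.3 and 27.7 TPM in undifferentiated libraries (-0.49 ± 0.069 SE, limma adjusted p = 4.64e-04). The groups did not overlap. NPM3, a smaller relative of nucleophosmin, was the gene of this role that was not called. Its levels were 41.3, 52.4, 47.9 and 45.5 TPM in differentiated libraries, around the tight 49.0, 48.6, 49.03 and 49.8 TPM of undifferentiated ones (-0.07 ± 0.069 SE, limma adjusted p = 0.403).

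**Figure D3:**
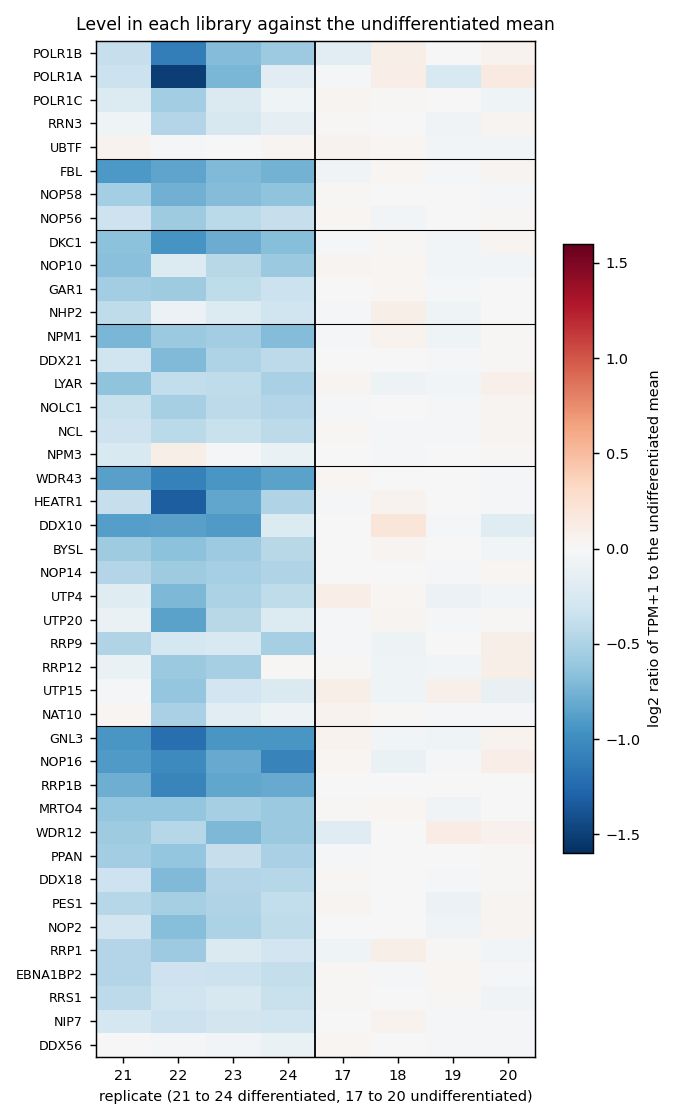
Level of each of the 43 genes in each library as the log2 ratio of TPM+1 to the mean of the undifferentiated libraries, differentiated replicates 21 to 24 left of the line and undifferentiated replicates 17 to 20 right of it; horizontal lines part the 6 roles. The differentiated columns are blue except in UBTF (replicates 21, 23 and 24), NPM3 (22), RRP12 (24) and NAT10 (21), which reach the undifferentiated mean or pass it, and POLR1A and HEATR1 are deepest in replicate 22.

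Among 11 factors of the small subunit, 7 fell and 0 rose, with a median of -0.45. WDR43, a protein of the assembly that binds the growing precursor, had 34.5, 29.7, 33.1 and 34.8 TPM in differentiated replicates 21 to 24, against 65.3, 63.7, 63.8 and 63.1 TPM in undifferentiated replicates 17 to 20. It fell by 0.94 ± 0.056 SE (limma adjusted p = 3.05e-06), the largest fall of this role. HEATR1, a scaffold of the same assembly, had 46.9, 23.8, 33.8 and 43.4 TPM in differentiated and 59.2, 62.99, 61.3 and 59.7 TPM in undifferentiated libraries. Its differentiated values were spread out, with replicate 22 lowest (-0.75 ± 0.188 SE, limma adjusted p = 0.0103), and it fell by 0.56 without that library.

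UTP4, a WD-repeat protein that joins the precursor early, was the most abundant of the role. It had 60.3, 41.5, 48.1 and 51.8 TPM in differentiated libraries, against 74.03, 70.2, 64.2 and 67.03 TPM in undifferentiated ones (-0.45 ± 0.107 SE, limma adjusted p = 0.00754). DDX10, an RNA helicase, had 12.6, 12.7, 12.4 and 20.5 TPM in differentiated and 23.8, 27.7, 23.6 and 20.9 TPM in undifferentiated libraries, so replicate 24 lay close to the undifferentiated range (-0.71 ± 0.163 SE, limma adjusted p = 0.00658). Its coding transcripts averaged 12.4 ± 0.35 TPM in differentiated and 19.4 ± 0.45 TPM in undifferentiated cells (-0.61, limma adjusted p = 3.7e-06). Its retained introns averaged 1.81 ± 3.61 and 3.84 ± 3.08 TPM in the same order (SD, n = 4 each). Within lane 8, where 2 undifferentiated libraries remain, limma called none of UTP4, HEATR1 and DDX10 (adjusted p = 0.0861, 0.0769 and 0.0728), with falls of 0.39, 0.74 and 0.61. BYSL, needed late in small subunit assembly, and NOP14, a protein of the early assembly, fell by 0.56 and 0.51. RRP9, which binds a box C/D small nucleolar RNA, fell by 0.38.

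The 4 small subunit factors that were not called all had a lower mean. UTP20, one of the longest, had 13.8, 7.81, 10.7 and 12.6 TPM in differentiated and 14.6, 15.4, 14.6 and 15.1 TPM in undifferentiated libraries, with no overlap (-0.41 ± 0.150 SE, limma adjusted p = 0.0513). UTP20 passed without replicate 21, 22 or 24, at -0.51, -0.26 and -0.47 (limma adjusted p = 0.0188, 0.0311 and 0.0491). UTP15, another WD-repeat protein, had 27.3, 17.7, 22.2 and 23.4 TPM in differentiated and 29.8, 26.4, 29.5 and 25.5 TPM in undifferentiated libraries, and these overlapped (-0.30 ± 0.122 SE, limma adjusted p = 0.0745). It passed at -0.39 without replicate 21 (limma adjusted p = 0.0194) and was -0.19 without replicate 22 (limma adjusted p = 0.102). RRP12, which acts in export and maturation of pre-ribosomes, had 42.4, 29.9, 31.3 and 46.2 TPM in differentiated libraries and 46.1, 43.2, 44.1 and 48.8 TPM in undifferentiated ones. Replicates 21 and 24 sat inside or near the undifferentiated range while 22 and 23 lay under it (-0.30 ± 0.139 SE, limma adjusted p = 0.11), and without replicate 24 it passed at -0.40 (limma adjusted p = 0.0288). NAT10, the acetyltransferase of small subunit RNA, had 41.8, 28.2, 35.7 and 38.5 TPM in differentiated and 42.4, 41.1, 39.7 and 39.7 TPM in undifferentiated libraries (-0.19 ± 0.11 SE, limma adjusted p = 0.194), and its change was -0.08 without replicate 22. All 4 were called lower under both other scalings, the median-of-ratios and the quantile one.

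Factors of the large subunit fell in 13 of 14 measured cases, with a median of -0.48 and the largest falls of the set. GNL3 encodes nucleostemin, a GTP-binding nucleolar protein abundant in stem and tumour cells. It had 116, 95.4, 115.5 and 116 TPM in differentiated replicates 21 to 24, against 230.5, 214.5, 210.4 and 231 TPM in undifferentiated replicates 17 to 20. Every differentiated library was near 50% of the undifferentiated level, with replicate 22 the lowest (-1.0 ± 0.073 SE, limma adjusted p = 9.71e-06). NOP16, an assembly factor, had 12.9, 11.8, 13.9 and 11.4 TPM in differentiated and 25.6, 23.1, 24.3 and 26.9 TPM in undifferentiated libraries (-0.95 ± 0.076 SE, limma adjusted p = 1.65e-05). RRP1B, a nucleolar partner of protein phosphatase 1, fell by 0.87 ± 0.065 SE and its paralog RRP1 by 0.40 ± 0.084 SE. Over coding transcripts alone RRP1B was called at -0.93, NOP16 at -0.87 and GNL3 at -0.73, and RRP1 was not called (-0.17, limma adjusted p = 0.0549). Coding transcripts held 46.3% of the TPM of GNL3 in differentiated and 38.1% in undifferentiated cells. For NOP16 they held 14.1% and 16.2%, at 1.76 and 4.02 TPM in the same order.

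PES1 and WDR12, which with BOP1 form a complex needed to process large subunit RNA, both fell. PES1 averaged 41.5 ± 1.65 TPM in differentiated and 57.7 ± 2.60 TPM in undifferentiated cells, and WDR12 averaged 66.7 ± 4.94 and 100.4 ± 9.24 TPM in the same order (SD, n = 4 each). Retained introns held 83.1% and 81.5% of the TPM of WDR12 in that order. Over coding transcripts alone WDR12 averaged 11.2 TPM in differentiated and 18.5 TPM in undifferentiated cells, below PES1 at 33.0 and 41.9 TPM. Falls of MRTO4, PPAN, DDX18, NOP2, EBNA1BP2, RRS1 and NIP7 lay between 0.59 and 0.31 on the log2 scale. MRTO4 is a stalk assembly factor, DDX18 and NOP2 are a helicase and a methyltransferase of large subunit RNA, and the others bind early large subunit particles. PPAN overlaps a read-through transcript with P2RY11, which held 1.83 TPM in differentiated and 3.16 TPM in undifferentiated cells. Over coding transcripts alone PPAN fell by 0.25 (limma adjusted p = 0.0334), against 0.52 over all its transcripts.

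DDX56, a helicase of the nucleolus, was the exception in this role. It had 93.3, 92.2, 90.5 and 86.97 TPM in differentiated libraries, against 95.6, 94.04, 91.9 and 92.1 TPM in undifferentiated ones, so its groups overlapped (-0.04 ± 0.036 SE, limma adjusted p = 0.375). Its coding transcripts held only 15.7% of its TPM in differentiated and 24.1% in undifferentiated cells. Over these alone, DDX56 averaged 14.2 ± 4.48 TPM in differentiated and 22.5 ± 2.26 TPM in undifferentiated cells and was called lower (-0.68 ± 0.221 SE, limma adjusted p = 0.0224). It was also called under quantile scaling, at -0.14.

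**Figure D4:**
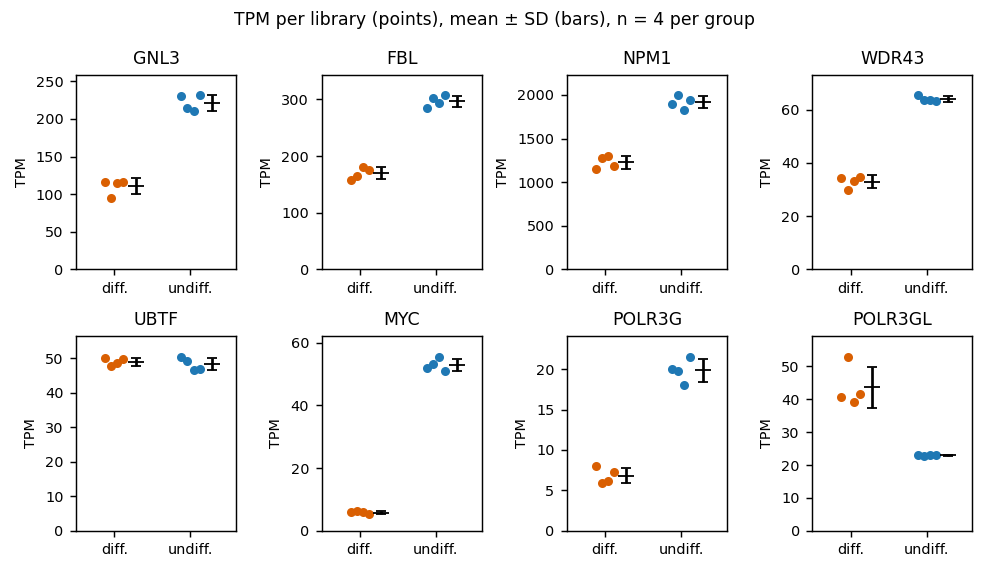
TPM of 8 genes in each library (points) with the mean ± SD of n = 4 libraries beside them, differentiated left of undifferentiated, each axis starting at 0. GNL3, FBL, NPM1, WDR43, MYC and POLR3G are lower in every differentiated library, UBTF overlaps, and POLR3GL is higher in every differentiated library.

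No difference in the mix of transcripts behind these genes passed the test. Coding transcripts held 68.4% to 70.7% of the summed TPM of the 43 genes in differentiated and 68.3% to 69.4% in undifferentiated libraries. Retained introns held 20.7% to 22.7% and 21.3% to 22.6% in the same order, against 6.8% to 9.1% and 7.9% to 8.4% over all protein-coding genes tested, and the short NPM1 transcript named above made up a large part of this. For 36 of the 43 genes the highest transcript was a coding one, for 4 (NPM1, NOP16, WDR12 and PPAN) a retained intron, for 2 (RRP1 and DDX56) a nonsense-mediated decay transcript and for NOP56 a processed transcript. Shares within a gene were tested for 86 transcripts of 36 genes, and 0 passed (limma, adjusted p under 0.05 with a difference of at least 10 percentage points), with 10 at an unadjusted p under 0.05. Of all 22951 transcripts tested, 2.4% passed. Closest was a short coding transcript of FBL, at 20.3% of its gene in differentiated and 29.3% in undifferentiated cells (limma adjusted p = 0.0669). The largest difference, 12.8 percentage points, was in the main coding transcript of HEATR1 (69.8% in differentiated, 57.0% in undifferentiated cells, limma adjusted p = 0.177).

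The promoters of the genes were searched for CACGTG, which reads the same on both strands. It is the E-box that MYC binds with its partner MAX. RefSeq windows (GRCh38.p14) from 250 bases before to 50 after a start site were at hand for 37 of the 43 genes. CACGTG occurred in 17 of these 37 (45.9%), against 12.1% of 11116 tested genes with a window and 7.26% of all 35116 windows. Many of the genes were listed as MYC targets, so this share is not independent of how the set was chosen. It occurred in 15 of 30 called genes (50%, against 15.2% of 2131 genes called lower with a window) and in 2 of 7 that were not called (NAT10 and UTP20), and in none of the 5 RNA polymerase I genes. Of 17 sites in 16 of the genes, those with enough sequence on both sides, 14 began within 50 bases of the start. A match of letters is a description of the promoter and not evidence of binding. For the gene with the largest fall among those with a match in each role, 30 bases around the site are shown 5′ to 3′ on the gene's strand, with the E-box in capitals:
FBL, chr19:39846356-39846385, minus strand: tgcgctcttttcCACGTGcgaaagccccgg
LYAR, chr4:4290068-4290097, minus strand: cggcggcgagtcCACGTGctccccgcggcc
WDR43, chr2:28894658-28894687, plus strand: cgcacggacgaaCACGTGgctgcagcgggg
GNL3, chr3:52686026-52686055, plus strand: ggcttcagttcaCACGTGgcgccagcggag

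NOP10 held 2 E-boxes, beginning 170 and 11 bases before its start, and its window is shown over the 250 bases before the start (GRCh38.p14, chr15:34343137-34343386, minus strand, E-boxes in capitals):
NOP10: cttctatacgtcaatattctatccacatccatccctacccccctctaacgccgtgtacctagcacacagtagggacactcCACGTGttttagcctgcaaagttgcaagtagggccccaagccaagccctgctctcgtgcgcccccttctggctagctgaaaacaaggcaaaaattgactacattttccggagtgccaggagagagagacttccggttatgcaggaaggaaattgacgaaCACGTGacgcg

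In FBL, WDR43 and GNL3 the E-box began 7, 4 and 7 bases into the transcribed part, and in LYAR 64 bases before the start. MYC itself had 6.0, 6.16, 5.90 and 5.21 TPM in differentiated replicates 21 to 24, against 51.9, 53.3, 55.5 and 51.1 TPM in undifferentiated replicates 17 to 20 (-2.99 ± 0.060 SE, limma adjusted p = 1.17e-08). MYCN and MYCL, its relatives, fell by 0.90 and 0.60 from low levels, and MAX fell by 0.17 with overlapping groups. Of the 12 genes of the MYC network 4 (33.3%) fell and 4 (33.3%) rose, against 17.4% and 33.9% of all genes tested. The share that rose was thus close to that of all genes. Those that rose were MNT, with overlapping groups, MXD3, MXD4 and MLX. These and MAX were named after their values were seen. The split of the list depended on the scaling. Under median-of-ratios scaling 7 fell and 1 rose, against 26.1% and 26.7% of all genes. Under quantile scaling 8 fell and 1 rose, against 29.9% and 24.4% of all genes. Within lane 8, 3 fell and 1 rose, against 1886 and 4474 of 17196 genes. On the log2 scale with a pseudocount of 0.1, MYCN and MYCL fell by 1.57 and 0.94. The part of MYC in the falls described here was not tested.

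The wider pathway showed the same direction with more exceptions. Over 164 other ribosome biogenesis genes, 98 (59.8%) fell and 14 (8.5%) rose, with a median of -0.28. Under median-of-ratios scaling 119 fell and 8 rose, under quantile scaling 122 and 8, and within lane 8 71 and 9. Genes named below as risen, other than those with a value, were named after their values were seen. Of 16 other RNA polymerase I genes 7 (43.8%) fell and 3 (18.8%) rose. The falls were led by the subunit POLR1E (-0.83 ± 0.057 SE) and the promoter factor TAF1B (-0.46 ± 0.068 SE). The 3 that rose, POLR2L (1.08 ± 0.096 SE), POLR2H (0.34) and POLR2K (0.10), encode subunits shared by all nuclear RNA polymerases, as do POLR2F, which fell by 0.36, and POLR2E, which was not called (-0.09). Under quantile scaling 12 of the 16 fell and 2 rose.

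In the RNA polymerase III list, 12 of 22 (54.5%) fell and 2 (9.1%) rose, against 17.4% and 33.9% of all genes tested. POLR3G and POLR3GL encode alternative forms of one subunit, POLR3G being the form known from stem and dividing cells. POLR3G had 8.03, 5.96, 6.11 and 7.24 TPM in differentiated libraries, against 20.05, 19.8, 17.99 and 21.5 TPM in undifferentiated ones (-1.42 ± 0.099 SE, limma adjusted p = 7.72e-06). POLR3GL had 40.6, 52.95, 39.1 and 41.7 TPM in differentiated and 23.0, 22.6, 23.1 and 23.0 TPM in undifferentiated libraries (0.89 ± 0.091 SE, limma adjusted p = 6.86e-05). Neither pair of groups overlapped, and the ratio of POLR3G to POLR3GL was 0.113 to 0.198 in differentiated and 0.78 to 0.936 in undifferentiated libraries. The other gene that rose was CRCP, an RNA polymerase III subunit, at 78.03, 41.9, 65.6 and 83.6 TPM in differentiated and 44.4, 41.9, 37.6 and 40 TPM in undifferentiated libraries. Replicate 22 lay within the undifferentiated range (0.66 ± 0.197 SE, limma adjusted p = 0.0228), and the call was lost without replicate 19, 20, 21, 23 or 24 (limma adjusted p = 0.0522 to 0.0593). Within lane 8 CRCP was not called either (0.73, limma adjusted p = 0.0867).

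Of 10 measured snoRNP assembly genes 6 fell, led by NAF1 (-0.48), NUFIP1 (-0.36) and RUVBL2 (-0.34), and ZNHIT6 rose by 0.19 (limma adjusted p = 0.0183). No gene of that list rose under median-of-ratios or quantile scaling, within lane 8, or without replicate 17, 23 or 24. Among 47 other small subunit genes 30 (63.8%) fell and 5 (10.6%) rose (EMG1, TSR3, RRP36, BUD23 and TSR2). In that list 33 fell and 1 rose under median-of-ratios scaling, 34 and 1 under quantile scaling, and 20 and 2 within lane 8. WDR3, a partner of the small subunit assembly, fell by 1.08 ± 0.199 SE, RCL1 by 0.89 ± 0.089 SE and WDR75 by 0.82 ± 0.198 SE. Replicate 22 was the lowest differentiated library for WDR3 (18.5 TPM) and WDR75 (43.1 TPM), against 30.2 to 37.3 and 70.2 to 84.4 TPM in the other 3. Within lane 8 WDR75 was not called (-0.77, limma adjusted p = 0.0758), and over its coding transcripts it fell by 0.48. Among 52 other large subunit genes 34 fell and SBDS alone rose. RSL24D1, a placeholder protein of the maturing large subunit, averaged 115 ± 3.84 TPM in differentiated and 202 ± 5.51 TPM in undifferentiated cells (SD, n = 4 each), a fall of 0.81. NOC2L and GNL3L, a paralog of nucleostemin, fell by 0.78 and 0.77, and GNL3L was not called within lane 8 (-0.76, limma adjusted p = 0.11). SBDS, which acts in the last step of large subunit maturation, averaged 71.7 ± 4.69 TPM in differentiated and 46.7 ± 1.58 TPM in undifferentiated cells. In the RNA exosome list of 17 genes, which degrade and trim nuclear RNA, 9 fell, led by EXOSC2 (-0.69) and EXOSC5 (-0.61), while C1D and the trimming nuclease ERI1 (1.87 ± 0.059 SE) rose. Within lane 8, 4 of the 17 (23.5%) fell and 2 (11.8%) rose.

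**Figure D5:**
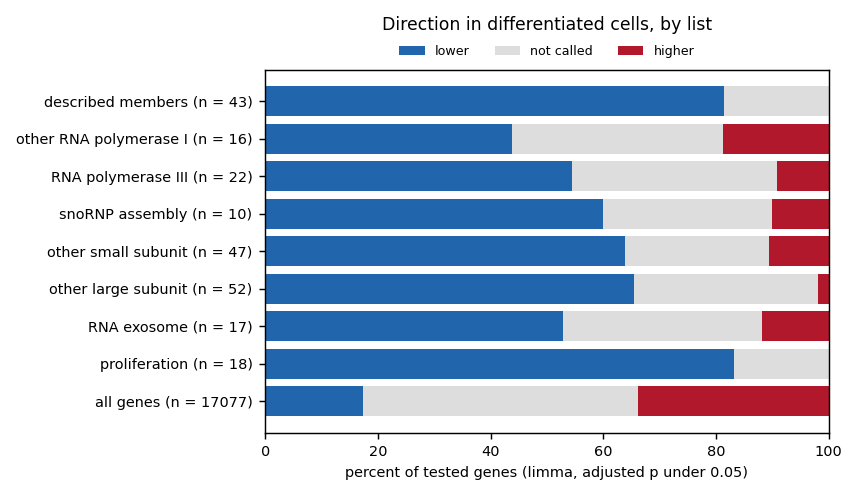
Percent of tested genes of each list that were lower, not called or higher in differentiated cells (limma, adjusted p under 0.05), with the number tested. The described members (81.4% lower, 0 higher) and the proliferation list (83.3% lower, 0 higher) have no red part, and all genes together are 17.4% lower and 33.9% higher.

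Of 18 proliferation genes 15 (83.3%) fell and 0 rose, against 17.4% and 33.9% of all genes tested. The median of the list was -0.45, so this list moved beside the set and its part in the falls was not tested. The cyclin CCNB1 averaged 103.5 ± 3.83 TPM in differentiated and 208 ± 5.52 TPM in undifferentiated cells (SD, n = 4 each). TOP2A, BUB1 and MKI67 fell by 0.94, 0.75 and 0.66. Among genes tied to nucleolar stress, CDKN1A, the cell cycle inhibitor p21, averaged 74.8 ± 2.26 TPM in differentiated and 16.6 ± 1.71 TPM in undifferentiated cells (2.11 ± 0.071 SE). MDM2, a ubiquitin ligase, rose by 0.48, a call lost under median-of-ratios and quantile scaling (limma adjusted p = 0.0984 and 0.113) and over coding transcripts alone (limma adjusted p = 0.174). RPL5, a ribosomal protein that can bind MDM2, fell by 0.56.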

How the data were processed

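The authors deposited TPM for 194993 Ensembl transcripts in 8 libraries, each column summing to 1000000. The submitters' processing notes name Salmon, FastQC 0.11.2 and the build GRCh37, and the labels' protocols a stranded mRNA kit. Salmon's version, annotation and strand setting stand as not given in the sources used here. TPM keeps no depth, and genes with close copies or overlaps are uncertain. Transcripts were matched by identifier to GENCODE 29 (92.8% matched, 93.2% to 95.0% of a library's TPM) and summed per gene. Genes with a mean of at least 1 TPM entered a limma fit (3.58.1, R 4.3.3, eBayes with trend) on log2(TPM+1), with group as the only term, Benjamini-Hochberg adjustment over all 17077 genes and a threshold of 0.05, two-sided. Transcript shares were tested with limma after an arcsine square root, in genes of at least 5 TPM per group and for mean shares of 10% to 90%. Lane 7 against lane 8 within undifferentiated libraries called 2 of 16647 genes and 0 of the 43 described (1 at an unadjusted p under 0.05, 652 of all). Replicate numbers are not shared between groups. The steps were tested on simulated data. The members and lists were chosen with earlier results of these data known. Values per library are given for the 2 called genes with the largest change and the most abundant gene of each role and for genes not called, with DDX10 added after its values were seen, and from each other list up to 3 called genes with the largest change were named, with MYC, MYCN and MKI67 fixed by name. One further result is not reported here. Alternatives were 2 pseudocounts, 2 filters, 2 scalings, no trend, lane 8 alone, coding transcripts alone and each library left out. Python 3.11.15, pandas 2.3.3, numpy 2.4.6 and matplotlib 3.10.9 handled tables and figures.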

Additional observations from a re-analysis of the deposited data

Results flagged for a closer look

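In groups of 4 libraries, 1 value set far from the other 3 was looked for in 72 genes (144 groups), and 6 were found. Chance alone gives about 1 in 20 groups, so 6 of 144 is no more than chance would give. GNL3 was lowest in differentiated replicate 22, at 95.4 TPM against 115.5 to 116 TPM in the other 3. DDX10 was highest in differentiated replicate 24, at 20.5 TPM against 12.4 to 12.7 TPM. In undifferentiated cells NOLC1 was highest in replicate 20 (121 TPM, the others 115 to 116 TPM), RRS1 lowest there (27.05 TPM, the others 28.4 to 28.6 TPM) and POLR1E highest there (33.1 TPM, the others 31.4 to 31.5 TPM). NOC2L was lowest in undifferentiated replicate 19, at 140.0 TPM against 150.5 to 152 TPM.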

How the results depend on the processing

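No paired analysis was possible because the groups share no replicate numbers. Under the 17 alternatives the number of described genes that fell was 29 (lane 8 alone) to 41 (quantile normalization), 33 to 38 when each library was left out, and 0 rose under any. Of the 35 called genes, 27 kept their call under all 17. The median of the set moved to -0.60 under median-of-ratios and -0.57 under quantile scaling, and was -0.51 to -0.42 when each library was left out. The count of all genes that fell, 2970, became 4459 and 5098 under these scalings and 1886 within lane 8, where fewer libraries were tested. The sign of UBTF turned, to -0.11 and -0.10, with the same 2 scalings. No described transcript changed its share under any of the 11 alternatives run for shares. Of 731 single values of described genes 681 stayed on their side of the threshold, 24 lost a call, 24 gained one and the 2 of UBTF turned sign. With depth unknown, no counting error can be given.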
